A study of Mus musculus with 4 samples.

Results

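The 9 genes described here encode immediate early transcription factors: the AP-1 genes Jun, Junb, Jund, Fos, Fosb, Fosl2 and Atf3, the zinc finger factor Egr1 and the small nuclear regulator Ier2. They were chosen by symbol, 9 of the 28692 genes in the deposited gene tables, and all 9 were found once. They were followed in 4 single-cell libraries of sorted mouse brain myeloid cells, 1 group with no second condition. Each library came from cortex and hippocampus of male C57BL/6J mice at postnatal day 90. The mice had received PBS in the tail vein 24 h earlier by the labels, whereas the study's methods give a shorter time. Tissue was homogenized in a cold Dounce. Live CD45+ and CD11b+ cells were sorted, so cells lacking these surface proteins were not sampled. The study's sample list adds CX3CR1 to this gate while its methods leave it out, and whether it was used here is uncertain. By the study's account each library came from its own mouse, although the labels name no animals. The study also records that a blocked sorter forced the last animal's cells to be sorted again, with more time at room temperature and repeated changes from ice. The study calls that animal its sample 4. It reports that cells with its ex vivo activation signature, which includes Fos, Jun and Dusp1, came almost only from that animal. The labels do not carry the study's sample numbers and do not say which library that was. Replicates are numbered here in accession order, replicate 4 also has the highest title number, and the part of the repeated sort in the differences below was not tested.

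AP-1 is a dimer of basic leucine zipper proteins. Jun proteins pair with each other or with Fos and ATF proteins, whereas Fos proteins need a Jun partner to bind DNA. Immediate early genes are transcribed within minutes of a stimulus, without new protein synthesis, and many of their mRNAs decay quickly. In macrophages, of which microglia are the resident type in the brain, many kinds of stimuli are known to induce them.

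The 4 libraries held 13138 cell barcodes, of which 13002 were kept (2576 to 3692 per library). A kept cell had 400 or more genes detected and mitochondrial transcripts at no more than 10% of its UMIs. The libraries carried 5841671 to 11267195 UMIs, with medians of 1905 to 2936 UMIs per cell, and pairs of libraries shared 6 to 21 barcodes. Summed over 10 genes, microglial identity markers were at 40144 to 41326 CPM (the UMIs of a gene scaled to 1000000 UMIs per library), and between 99.96% and 100% of cells held at least 1 of their UMIs. Erythroid and neutrophil markers had 0 UMIs in every library, which allows up to 3. Replicate 4 had the highest summed level of the macrophage (79.7 against 12.6 to 59.4 CPM), monocyte (48.6 against 9.41 to 39.1 CPM) and MHC class II markers (1196 against 224 to 419 CPM). It also stood apart in several member genes, and each result below is therefore given per library.

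The promoter sequences of the members that differed most between libraries are shown first, as these genes share elements read by signal-dependent factors. RefSeq sequences on GRCm38.p6 were at hand for 7 of the 9 genes, without Egr1 and Ier2. The 250 bases before the start site were searched on both strands. The letters TGACG, the core of the cyclic AMP response element (CRE), were found in 4 of the 7 (Fos, Fosb, Junb and Atf3), against 17.8% of 32851 promoters. Jun instead held TGACATCA, the variant AP-1 site known for Jun and ATF2 dimers, found in 2.93% of promoters. The canonical site TGANTCA was in 0 of the 7, against 6.75% of promoters. No match to one of these motifs is also a match to another. The lines below give the 130 bases before each start site, 5′ to 3′ on the gene's strand, with matches to TGACG in capitals, and to TGACATCA for Jun. Atf3 is included as a member whose level did not stand apart, and its capitals are TGACG read on the opposite strand. The windows are chr12:85473760-85473889 (Fos, plus strand), chr7:19310046-19310175 (Fosb, minus), chr4:95052223-95052352 (Jun, minus), chr8:84978749-84978878 (Junb, minus) and chr1:191183334-191183463 (Atf3, minus).
Fos: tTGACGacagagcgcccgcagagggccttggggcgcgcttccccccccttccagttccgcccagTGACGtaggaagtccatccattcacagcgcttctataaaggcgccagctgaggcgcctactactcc
Fosb: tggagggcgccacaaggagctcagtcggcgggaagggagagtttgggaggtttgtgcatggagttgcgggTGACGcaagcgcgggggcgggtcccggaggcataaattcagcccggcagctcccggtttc
Jun: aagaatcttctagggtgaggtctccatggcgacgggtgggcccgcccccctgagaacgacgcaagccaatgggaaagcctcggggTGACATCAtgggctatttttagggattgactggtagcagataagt
Junb: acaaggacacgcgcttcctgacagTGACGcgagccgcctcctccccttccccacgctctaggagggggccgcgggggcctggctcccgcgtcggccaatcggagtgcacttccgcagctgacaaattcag
Atf3: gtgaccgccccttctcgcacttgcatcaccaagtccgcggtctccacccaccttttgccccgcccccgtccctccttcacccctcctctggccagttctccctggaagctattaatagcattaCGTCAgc
The match nearest the start site began 66 bases before it in Fos, 60 in Fosb, 45 in Jun, 106 in Junb and 7 in Atf3. Fos alone of the 7 also held TATAA, 33 bases before the start, a sequence found on the gene's strand in 15.997% of promoters. Jund and Fosl2 held none of the TGACG, TGACATCA or TGANTCA letters in the window searched. The start site used for Jund lies upstream of the gene span given below. Those used for Fosl2 and Atf3 lie inside the spans given for these genes. Presence or absence of the letters therefore holds for the start sites used, and windows at the ends of those spans were not searched. The matches are of letters and were not tested as sites.

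AU-rich elements in the 3′ UTR mark many short-lived mRNAs. In the longest GENCODE M21 3′ UTR of each gene, the pentamer ATTTA occurred 0 times (Ier2) to 8 times (Fosl2). It occurred 4 times each in Fos and Jun, 3 times in Atf3, 2 times each in Junb and Egr1, and 1 time each in Fosb and Jund. Of the members, 4 of 9 had 3 or more copies (44.4%), against 47.2% of 13461 genes with 3′ UTRs in the same length range, so the count was near the background. The longer element TTATTTATT was present in Fos and Fosl2 and in 9.23% of the 13461 genes. The Fos site, in the last exon, is at chr12:85477103-85477131 on the plus strand of GRCm38 and is shown because Fos and Fosl2 share the element but differ in their levels across libraries. The Fosl2 site is at chr5:32156871-32156899, also on the plus strand.
Fos element: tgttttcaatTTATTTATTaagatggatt
Fosl2 element: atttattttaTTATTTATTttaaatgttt

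All 9 members had their highest level in replicate 4, against 31.8% of 7656 genes with a mean of at least 10 CPM. The size of the difference was very unequal. Egr1 was 15.1-fold and Fos 10.6-fold above the second-highest library, Jun 2.27-fold, and Atf3 1.08-fold. Among the 7656 genes, Egr1 ranked 1 and Fos 2 by this ratio, Ier2 ranked 4, Jun 12 and Junb 36. With 1 group, the test available was Dixon's range test, which divides the gap between an end library and its neighbour by the range of the 4 values on the log2(CPM + 1) scale. By this test 1 library stood apart (two-sided 95% level) for 4 of the 9 members, Fosb, Junb, Egr1 and Ier2, each with replicate 4 highest, against 4.62% of all genes tested in either direction and 1.1% with replicate 4 highest. With TMM scaling the share of all genes was 4.55% and the same 4 members stood apart. Fosb and Fosl2, with means of 3.98 and 4.48 CPM, were under the filter applied to the other genes, and 7 members passed it.

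**Figure D1:**
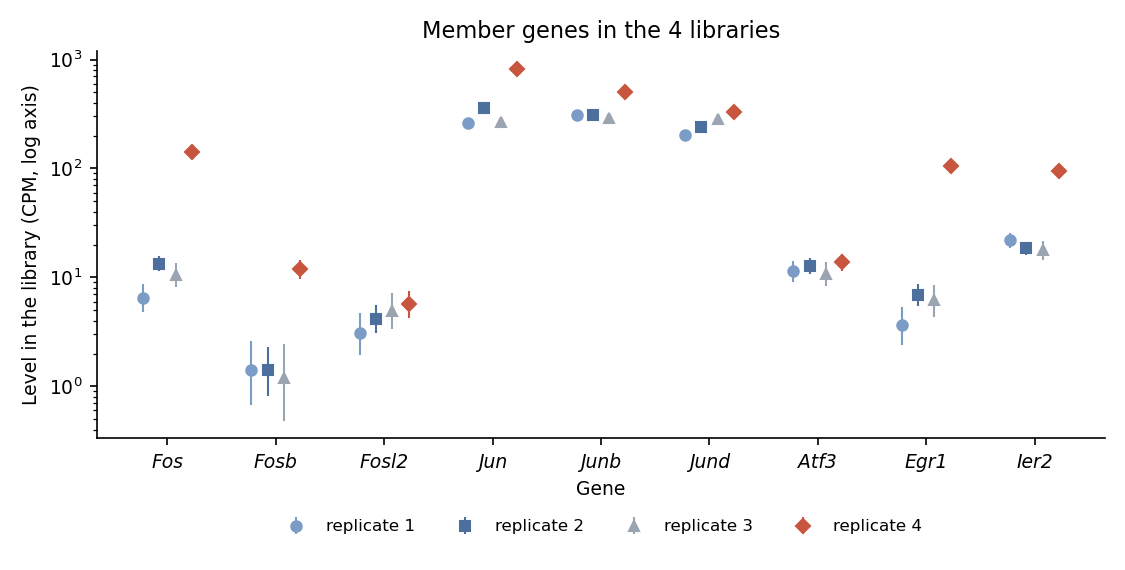
Level of each member gene in CPM (log axis) in the 4 libraries. Points are libraries and bars are exact Poisson 95% intervals, which cover counting error only. Replicate 4 is highest for all 9 genes, by 1.08-fold for Atf3 and 15.1-fold for Egr1 over the second-highest library.

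The Jun family, present in every AP-1 dimer with a Fos protein, supplied most member UMIs. Jun (chr4:95049034-95052222, minus strand) was at 260, 357, 265 and 811 CPM in replicates 1 to 4. Replicate 4 lay far above the rest, and replicate 2 also exceeded replicates 1 and 3 with intervals that did not overlap. Its gap ratio of 0.723 did not pass the test. Junb (chr8:84974484-84978718, minus), which often acts as a weaker activator than Jun, was at 307, 311, 294 and 502 CPM. Replicates 1 to 3 had overlapping intervals and replicate 4 was 1.61-fold above the next, which passed (ratio 0.893). Jund (chr8:70698949-70700616, plus), the family member known for steady expression, was at 203, 241, 284 and 332 CPM. Its 4 libraries were spread evenly, each interval clear of the next, and none stood apart (ratio 0.354). The 3′ reads of Jun, Junb and Jund could include those of overlapping genes (the antisense RNA Junos, Prdx2 and the antisense RNA Gm11175, respectively) only where strand was not used in counting, which is not given in the sources used here.

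The Fos family members differed in level and in pattern. Fos (chr12:85473890-85477273, plus) was at 6.52, 13.4, 10.6 and 142 CPM, from 46, 151, 62 and 1281 UMIs. Replicate 4 was 10.6-fold above replicate 2, but replicates 1 to 3 themselves spanned 2.06-fold, and the ratio of 0.780 did not pass. Fosb (chr7:19302696-19310051, minus), which like Fos is transiently induced, was at 1.42, 1.42, 1.20 and 11.9 CPM, from 10, 16, 7 and 107 UMIs. Replicate 4 stood apart (ratio 0.946), 8.37-fold above the next, while replicates 1 to 3 could not be told apart within counting error. Fosl2 (chr5:32135801-32157842, plus), which encodes Fra-2, a Fos protein usually induced later and kept longer, was at 3.12, 4.17, 4.96 and 5.67 CPM. Its neighbouring libraries all had overlapping intervals. The ratio of Fos to Fosl2 UMIs was 2.09, 3.21 and 2.14 in replicates 1 to 3 and 25.1 in replicate 4.

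Atf3 (chr1:191170296-191218039, minus), a stress-induced bZIP factor often acting as a repressor, was at 11.5, 12.8, 10.8 and 13.8 CPM. All neighbouring intervals overlapped and no library stood apart (ratio 0.308). It rested on 63 to 144 UMIs per library, and the small RNA gene Gm24748 lies within it on the opposite strand. Egr1 (chr18:34859823-34864984, plus), a zinc finger factor classically induced through serum response factor, was at 3.68, 6.92, 6.16 and 105 CPM, from 26, 78, 36 and 941 UMIs. Replicate 4 stood apart by a ratio of 0.831, just past the test's limit, and with the deepest 1% of cells left out, without cells holding macrophage or monocyte markers, or with a pseudocount of 0.1 CPM it no longer did. The fold over the second library stayed at 15.04 and 15.06 with those cells left out. Ier2 (chr8:84661331-84662852, minus) was at 22.0, 18.5, 17.8 and 95.8 CPM. The first 3 overlapped and replicate 4 stood apart (ratio 0.878), 4.36-fold higher than the next.

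The make-up of the member transcripts differed in replicate 4. Together the members reached 818, 966 and 894 CPM in the first 3 replicates, against 2019 CPM in replicate 4. Jun, Junb and Jund together made up 94.1%, 94.1% and 94.2% of member UMIs in replicates 1 to 3 and 81.5% in replicate 4. Fos, Egr1 and Ier2 together were 3.93%, 4.02% and 3.87%, and 16.97% in replicate 4. The ratio of Jun to Jund was 1.28, 1.48 and 0.935 in replicates 1 to 3 and 2.44 in replicate 4. Without cells holding 2 or more UMIs of macrophage and monocyte markers, which were most abundant in replicate 4, Fos was still 11.1-fold above the second library. The MHC class II markers were not removed this way, and their part in these levels was not tested.

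To ask whether replicate 4 held a few strong cells or a shift across cells, every cell was thinned to 1000 UMIs, which kept 12737 cells (2491 to 3669 per library). Cells with at least 1 Jun UMI were 21.7%, 27.1% and 22.4% of replicates 1 to 3 and 46.1% of replicate 4 (exact 95% interval 44.3% to 47.9%). Junb was found in 25.7%, 26.4% and 23.9% of cells and in 36.1% of replicate 4. Jund was found in 18.8%, 22.3% and 25.5%, and in 25.9% of replicate 4, whose interval overlapped that of replicate 3. Thus Jun and Junb were found in more cells of replicate 4 than of any other library, whereas Jund was not clearly so.

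The sparser genes showed wider gaps in the share of cells. Fos was found in 0.515%, 1.45% and 0.763% of cells in replicates 1 to 3 and in 10.2% of replicate 4. Egr1 was found in 0.343%, 1.06% and 0.843%, and in 8.92% of replicate 4. Ier2 was found in 2.26%, 2.02% and 1.89%, and in 8.18% of replicate 4. Each of these 3, and Fosb (0.0803% to 0.200%, and 0.973% in replicate 4), stood apart by Dixon's test on the percentages, 4 of 9 members against 5.19% of all genes in either direction and 1.4% with replicate 4 highest. Atf3 (1.08% to 1.36%) and Fosl2 (0.258% to 0.616%) did not. Marker lists of cell types that a myeloid sort should lack, each summed over 4 or 5 genes, were measured at the same depth for comparison. A UMI was found in 0.0803% to 0.260% of cells for neurons, 0.161% to 0.584% for astrocytes, 0.916% to 1.82% for oligodendrocytes and 1.72% to 2.97% for endothelial cells. Fosb, Fosl2 and Atf3 in all 4 libraries, and Fos, Egr1 and Ier2 in replicates 1 to 3, did not exceed the highest of these. That highest value rested mostly on Pecam1 (146 to 237 UMIs before thinning), while Cldn5 and Ly6c1 had 0 UMIs. Sums over several genes were also set against single genes. The comparison therefore cannot show which of these member shares are background. Fos, Egr1 and Ier2 in replicate 4 lay above the highest list value. Without thinning, Fos was found in 20.4% and Egr1 in 21.7% of cells of replicate 4, against at most 3.09% and 1.98% elsewhere.

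Within replicate 4 the transcripts were unevenly shared between cells. If all cells had the same expected count, Poisson counting at the observed mean would give 26.2 cells with 2 or more Fos UMIs, and 69 were found, 8 of them with 4 or more. The same comparison gave 39 against 15.04 cells for Egr1 and 28 against 12.4 for Ier2. For Jun it gave 604 against 572, with 90 cells holding 4 or more UMIs and 46.1% of cells with any, against 54.3% under Poisson counting. All 6 better-measured genes (Jun, Junb, Jund, Fos, Egr1 and Ier2) thus had more multi-UMI cells than equal cells would give, by a larger factor for Fos and Egr1 than for Jun.

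**Figure D2:**
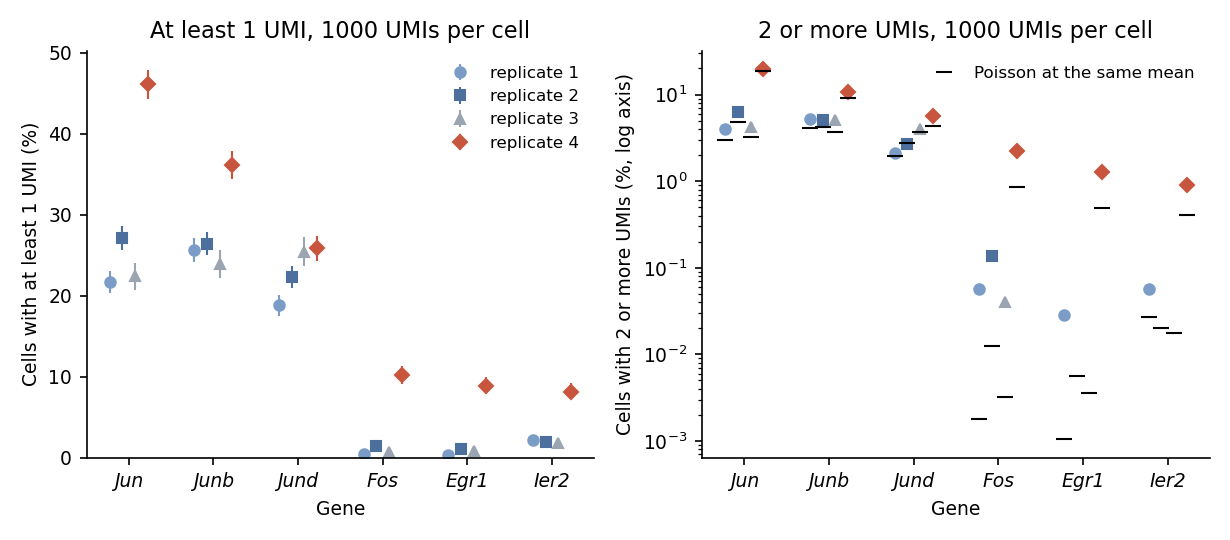
Percent of cells with at least 1 UMI (left, bars are exact 95% intervals) and with 2 or more UMIs (right, log axis) for 6 member genes, all cells thinned to 1000 UMIs; libraries with 0 such cells are not drawn on the right. Black dashes are the Poisson values at each library's mean, and in replicate 4 the points for Fos (69 cells against 26.2), Egr1 and Ier2 lie well above theirs.

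The variance-to-mean ratio of UMIs per cell, 1 under Poisson counting, was used to compare the libraries. Where cells differ it also rises with the mean, so a library apart in it need not differ in shape. For Jun it was 1.21, 1.20 and 1.21 in replicates 1 to 3 and 1.56 in replicate 4, which stood apart (gap ratio 0.963). Jun's mean was also highest there, at 0.784 UMIs per cell against 0.266 to 0.349. For Jund, whose share of cells in replicate 4 overlapped that in replicate 3, the variance-to-mean ratio was 1.04, 1.03 and 1.04. It was 1.18 in replicate 4, also apart (0.984). In all, 1 library stood apart in this ratio for 5 of 9 members against 12.8% of all genes, but 3 of the 5 rest on single cells. Fosb in replicate 4 and Fosl2 in replicate 2 had 1 cell each with 2 UMIs. Egr1 stood apart in replicate 1 (2.25) because 1 cell held 5 of its 16 UMIs. Jun stood apart in each of the 7 other cell and thinning settings run and Jund in none of them, although Jund was apart in the reported setting.

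The variance beyond Poisson counting (variance minus mean, over the squared mean), 0 for equal cells, gave another order. In replicate 4 it was 4.63 for Fos, 1.89 for Ier2 and 1.55 for Egr1, and 0.712 for Jun, 0.557 for Jund and 0.517 for Junb. For Jun it had been 0.784, 0.566 and 0.760 in replicates 1 to 3, and for Junb 0.497, 0.336 and 0.581, so replicate 4 lay within their range. For Jund it had been 0.176, 0.137 and 0.123, so its value was higher in replicate 4 in this thinning. No interval was computed for it. In the other settings run, Jund did not stand apart in the variance-to-mean ratio. The 10% of cells richest in member UMIs held 35.1%, 33.6%, 35.0% and 32.0% of them in replicates 1 to 4, against 31.6%, 30.4%, 30.8% and 23.9% under Poisson counting. The excess over equal cells was therefore widest in replicate 4, while the share itself was lowest there.

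The higher level was also present in cells with none of the sparser genes. Cells with no UMI of Fos, Fosb, Fosl2, Atf3, Egr1 or Ier2 were 95.4%, 93.7%, 94.98% and 74.6% of replicates 1 to 4. In those cells Jun had a mean of 0.264, 0.341, 0.277 and 0.678 UMIs per 1000, and Junb 0.319, 0.320, 0.292 and 0.452. Replicate 4 was above every other library for both genes, with intervals that did not overlap. Jund in those cells had 0.209, 0.250, 0.300 and 0.291 UMIs, with replicate 4 at the level of replicate 3. In the 25.4% of replicate 4 cells with at least 1 UMI of the 6 genes, Jun was at 1.10, Junb at 0.662 and Jund at 0.438 UMIs, each with its interval above that of the replicate 4 cells without them.

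Cells in which several members were found were mostly in replicate 4. The higher shares of single genes there raise this number even without co-expression, and how much of it they give was not computed. UMIs of 3 or more member genes were found in 66 (1.89%), 110 (2.998%) and 74 (2.97%) cells of replicates 1 to 3 and in 508 cells (16.5%, 15.2% to 17.8%) of replicate 4. At least 5 of the 9 genes were found in 0 cells of the first 3 libraries and in 27 cells (0.876%) of replicate 4. By the exact 95% interval, 0 cells allow shares of up to 0.105%, 0.1005% and 0.148% in replicates 1 to 3, for counting error only. Cells with no member UMI were 45.3%, 40.5% and 43.2% of replicates 1 to 3 and 24.4% of replicate 4. With cells thinned to 2000 UMIs the share with 3 or more was 38.6% in replicate 4 and at most 10.8% elsewhere.

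**Figure D3:**
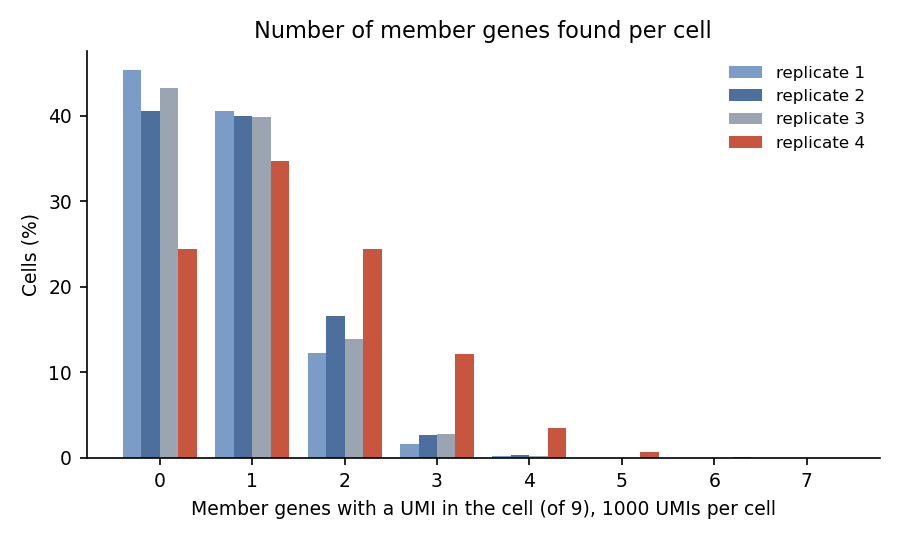
Percent of cells (bars, from 0) by the number of member genes with at least 1 UMI, per library, cells thinned to 1000 UMIs. In replicate 4, 24.4% of cells have none and 16.5% have 3 or more, against 40.5% to 45.3% and 1.89% to 2.998% in the other libraries.

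Cells of replicate 4 with 3 or more members were compared with those having none in the same library. They had similar depth, with medians of 2822 and 2738 UMIs before thinning, similar mitochondrial shares (1.15% and 1.21%) and similar ribosomal protein shares (7.46% and 7.35%). P2ry12, a purinergic receptor of homeostatic microglia, had a mean of 5.28 UMIs in the first and 5.92 in the second, and the fractalkine receptor Cx3cr1 had 2.73 and 3.06. The MHC class II chaperone Cd74 was at 0.480 and 0.256 UMIs, and 3.74% and 2.39% of cells held a macrophage or monocyte marker. The part of these markers in the co-detection was not tested, and without cells holding 2 or more of the macrophage and monocyte UMIs 16.7% of replicate 4 cells had 3 or more members, against at most 2.52% elsewhere.

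Co-expression was measured for each of the 36 pairs as the number of cells with both genes over the number given by the product of their shares. In replicate 4 the exact Poisson 95% interval of this ratio was above 1 for 16 of 36 pairs, against 0, 4 and 1 in replicates 1 to 3, and it was below 1 for 0 pairs in each library. These counts follow the number of cells available, as 23 pairs had at least 5 expected cells in replicate 4 and 9, 17 and 11 had in the others. Over such pairs the median ratio was 1.04, 1.17, 1.08 and 1.27 in replicates 1 to 4. The same measure between members and microglial identity genes had medians of 0.993 to 0.999. The 36 pairs share genes and cells and are not independent.

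In replicate 4 Fos, Egr1 and Ier2 were found together above the product of their shares. Fos and Ier2 were found together in 48 cells against 25.8 expected (ratio 1.86, 1.37 to 2.47). Egr1 and Ier2 were found together in 35 against 22.5 (1.56, 1.08 to 2.17), and Fos and Egr1 in 41 against 28.1 (1.46, 1.05 to 1.98). Higher ratios came from pairs with few cells. Fos and Fosb shared 9 cells against 3.07 (2.94, 1.34 to 5.57), and Atf3 and Ier2 shared 8 against 3.43 (2.33, 1.01 to 4.59). Fosb and Jund shared 13 against 7.76 (1.68, 0.892 to 2.87), an interval that includes 1. Among the Jun genes the ratios were closer to 1, at 1.13 for Jun and Junb, 1.20 for Jun and Jund and 1.18 for Junb and Jund, each with its interval above 1.

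Across all 4 libraries only 9 pairs had enough cells for at least 5 expected in each. The 3 with the highest median ratio were Junb and Ier2 (1.23, range 1.02 to 1.43), Jun and Jund (1.14, 1.11 to 1.20) and Jund and Ier2 (1.11, 1.003 to 1.33). The 3 lowest each contained Atf3, with medians of 0.753 for Junb and Atf3 (0.500 to 0.988), 0.801 for Jun and Atf3 (0.496 to 1.36) and 0.993 for Jund and Atf3 (0.728 to 1.29). Every interval of these Atf3 pairs included 1 in every library. The ratio exceeded 1.5 in every library for 0 of the 36 pairs and exceeded 1 in every library for 9.

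**Figure D4:**
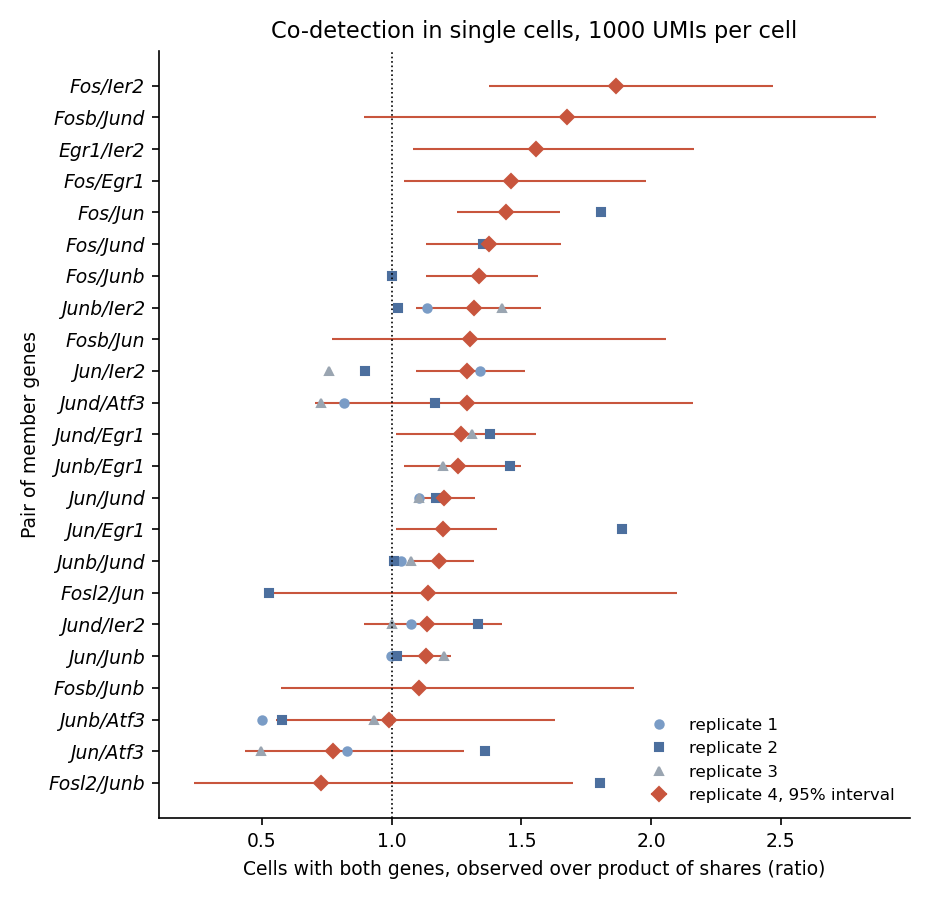
Observed over expected number of cells with both genes, for the 23 pairs with at least 5 expected cells in replicate 4 (diamonds, with exact Poisson 95% intervals); other libraries are drawn where their expectation is also at least 5. The dotted line marks 1, the product of the 2 shares, and Fos/Ier2 lies highest at 1.86.

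Since a Fos protein needs a Jun protein, cells with Fos mRNA were examined for a Jun family UMI. In replicate 4, 277 of 315 Fos cells (87.9%, 83.8% to 91.3%) held Jun, Junb or Jund, against 70.6% of all cells. The values were 61.1% against 52.5%, 73.6% against 57.5% and 68.4% against 54.6% in replicates 1 to 3, from 18, 53 and 19 Fos cells. Their intervals were 35.7% to 82.7%, 59.7% to 84.7% and 43.4% to 87.4%. Those of replicates 1 and 3 included the share of all cells. Egr1 cells of replicate 4 held a Jun family UMI in 80.4% and Ier2 cells in 80.6%. Both were also above the 70.6% of all cells, so such an excess was not particular to Fos. Conversely, 14.7% of Jun cells of replicate 4 held Fos. Fos and Egr1 were mostly found in different cells at this depth, with Egr1 in 13.02% of Fos cells and Fos in 14.9% of Egr1 cells, each only modestly above 8.46% and 9.76% in cells without the partner.

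To set the members in order, cells were grouped by the summed UMIs of 14 other rapidly induced genes (Dusp1, Btg2, Zfp36, Ier5, Klf2, Klf4, Klf6, Nr4a1, Gadd45b, Ppp1r15a, Rhob, Socs3, Nfkbiz and Csrnp1), among them a phosphatase, an mRNA decay factor and several transcription factors of the early response. The groups run from 0 to 5 or more UMIs and order cells, not time. In replicate 4 the mean of Fos went from 0.0572 UMIs per cell in the 297 cells with 0 index UMIs to 0.274 in the 529 with 5 or more, a ratio of 4.79. Ier2 went from 0.0337 to 0.159 (4.72), Jun from 0.458 to 1.24 (2.72) and Egr1 from 0.0673 to 0.170 (2.53). Jund had a ratio of 1.87 and Junb of 1.64. Fosb had 8.42, but from 31 UMIs, and Atf3 and Fosl2 gave 1.12 and 0.374 from 42 and 19 UMIs.

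Fos, Egr1 and Ier2 passed the midpoint between their lowest and highest group in cells with 4 index UMIs, whereas Jun, Junb, Jund and Fosb did so only in cells with 5 or more. Between 0 and 1 index UMIs Jun went from 0.458 (0.384 to 0.542) to 0.652 (0.590 to 0.718), with intervals that did not overlap. Ier2 went from 0.0337 (0.0161 to 0.0619) to 0.0783 (0.0579 to 0.103), with intervals that did. Egr1 was at 0.0673 and 0.0639 in the same groups. For Fos, Egr1, Ier2, Jun, Junb and Jund the groups with 3 and 4 index UMIs overlapped within counting error. Between the groups with 4 and with 5 or more, the intervals of Fos, Jun, Junb and Jund did not overlap, and those of Egr1 and Ier2 did. Junb stayed at 0.423 to 0.448 over the first 3 groups.

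Even the cells with 0 index UMIs differed between libraries. In them Egr1 was at 0.0673 UMIs (0.0411 to 0.104) in replicate 4 and at 0.00270, 0.00480 and 0.00982 in replicates 1 to 3. Jun was at 0.458 (0.384 to 0.542) against 0.259, 0.337 and 0.281, and Junb at 0.448 (0.375 to 0.531) against 0.267, 0.293 and 0.293. Fos was at 0.0572 (0.0333 to 0.0916) against 0.00404, 0.0168 and 0.00786. For these 4 genes the interval of replicate 4 was clear of the other libraries' intervals. For Ier2 (0.0337 against 0.0175 to 0.0216) and Jund (0.249 against 0.212 to 0.295) it overlapped them. In replicates 1 to 3 the ratios between the end groups were 1.16 to 1.26 for Jun and 0.767 to 1.08 for Jund. Junb had 1.41, 1.81 and 1.10, and in replicate 2 its end groups (0.293 and 0.531) had intervals that did not overlap. Ier2 in replicate 1 went from 0.0175 to 0.0938 (5.35), also without overlap. Fos in replicate 1 (5.15) and Egr1 in replicate 2 (5.54) rested on 21 and 39 UMIs.

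**Figure D5:**
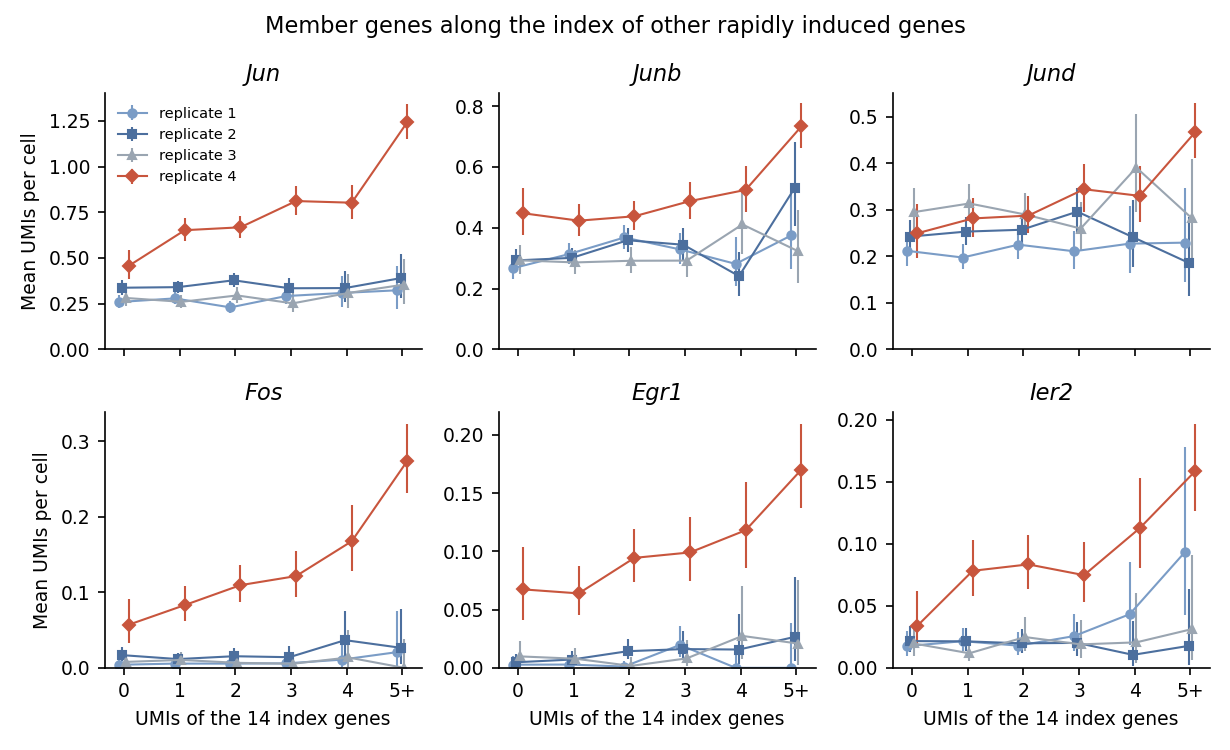
Mean UMIs per cell of 6 member genes (bars are exact Poisson 95% intervals) in cells grouped by the summed UMIs of 14 other rapidly induced genes, per library, cells thinned to 1000 UMIs. In replicate 4 Fos goes from 0.0572 to 0.274 and Jun from 0.458 to 1.24, while Jun in replicates 1 to 3 stays between 0.229 and 0.389.

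Grouping instead by the summed UMIs of the other 8 members also gave Fos the steepest course of the well-measured genes. Each gene was left out of its own sum, so the groups held different cells for each gene. In replicate 4 the group with 5 or more held 252 cells for Fos and 96 for Jun, and the ratios are not on equal groups. The mean of Fos in replicate 4 went from 0.0472 to 0.389 UMIs, a ratio of 8.24, against 4.33 for Ier2, 3.28 for Egr1 and 3.03 for Jun. Jund (2.42) and Junb (2.36) were lowest, as before. The orders by midpoint were not the same with this grouping: Jund passed it in cells with 2 UMIs, Jun and Egr1 with 3, Fos and Junb with 4 and Ier2 with 5 or more. No order of the genes is therefore read from the midpoints. By ratio Fos was first of the 6 and Junb last in both. Fos and Ier2 were close along the index (4.79 and 4.72), as were Jund and Junb along the other members. No interval was computed for the ratios, so these ends of the order are not resolved.

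Other genes of the pathway were followed by lists. Of 20 other bZIP genes, not all of them AP-1 genes, 13 passed 10 CPM, 0 had a library apart, and 5 were highest in replicate 4. Among the abundant genes of the list, the macrophage factor Maf was at 560, 559, 604 and 463 CPM, lowest in replicate 4 and not apart. Of 23 upstream kinases and factors 17 passed, 0 had a library apart and 6 were highest in replicate 4. Over all genes tested, 4.62% had a library apart and 31.8% were highest in replicate 4. With other settings some genes of these lists stood apart, named after their values were seen. They were Map2k2 with TMM or DESeq2 scaling, Rps6ka1 with TMM, Elk3 and Atf4 with at least 1000 genes per cell, Map2k1 and Mapk8 without the deepest 1% of cells, and Map2k1 without macrophage and monocyte marker cells. Atf7 did so in those last settings and with all barcodes. The most abundant upstream genes were Rps6ka1 (175 to 186 CPM) and Mapk3, which encodes the kinase ERK1 (139 to 169 CPM). The median log2 difference of replicate 4 from the mean of the others was 0.06 and 0.03 for these lists, and 0.02 over all genes.

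Of 31 other rapidly induced genes 17 passed, 14 were highest in replicate 4, and 3 stood apart there, with a median log2 difference of 0.44. Dusp1, a phosphatase that switches off MAP kinases, was at 5.10, 4.79, 6.50 and 38.8 CPM. The antiproliferative gene Btg2 was at 372, 382, 345 and 765 CPM, and Zfp36, whose product degrades AU-rich mRNAs, at 81.1, 79.9, 68.8 and 180 CPM. Btg2 stood apart in each of the 9 other settings run. Zfp36 did not with TMM or DESeq2 scaling, with CPM outside mitochondrial genes, with at least 1000 genes per cell or without the deepest 1% of cells. Dusp1 did not without macrophage and monocyte marker cells. The most abundant of the list, the small GTPase gene Rhob (518 to 859 CPM) and Btg1 (495 to 623 CPM), were highest in replicate 4 but not apart. Of the 10 microglial identity genes 1 had a library apart, Gpr34, with 2520 CPM in replicate 3 and 2355 to 2365 CPM elsewhere. It did not stand apart with TMM or DESeq2 scaling or with at least 1000 genes per cell, and Csf1r did with CPM outside mitochondrial genes. P2ry12 (5168 to 5661 CPM), also among the abundant genes of the list, did not, and the list's median log2 difference was -0.01.

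The genes whose cell-to-cell pattern was most like that of the summed members were sought among 7649 others, by the mean over the 4 libraries of Pearson's r across cells at 1000 UMIs. The 10 highest were Btg2, Nfkbia, Klf2, Malat1, Zfp36, Ccl4, Catip, Rgs2, Ier5 and H3f3b. Their mean r was 0.0354 to 0.0836, and 0 genes exceeded 0.1, so likeness was weak in these sparse counts. Only Btg2 reached an r of 0.238 in replicate 4, with 0.0241 to 0.0434 in the others.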

How the data were processed

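UMI counts of 4 libraries made with the 10X Genomics 3′ Version 2 kit were used as the authors deposited them, 1 gene-by-barcode matrix of counts per library. The submitters' processing notes name bcl2fastq, Cell Ranger 2.2.0, Seurat and the builds GRCm38 and mm10. The sources used here do not give the strand setting. The members and lists were chosen with earlier results of these data known. Barcodes with fewer than 400 genes, or with mitochondrial transcripts above 10% of their UMIs, were dropped, and counts were summed per library and scaled to CPM. Each UMI marks 1 transcript end, so no length scaling was applied. Levels were tested with Dixon's range test on log2(CPM + 1), for genes with a mean of at least 10 CPM and for all members. Cells were thinned to 1000 UMIs (0.623% to 3.30% of cells per library were shallower and left out) for shares, shapes, pairs and groupings, which are descriptions. Intervals are exact (Clopper-Pearson or Poisson, 95%) and cover counting error only. No doublets were removed. The genes named from other lists were those with a library apart and the 2 most abundant per list, with the 10 most like the members, and of pairs the 3 highest and 3 lowest median ratios with at least 5 expected cells in every library. Any pair named beyond these was chosen after its values were seen. Scaling alternatives used edgeR 4.0.16 and DESeq2 1.42.0, other steps Python 3.11.15, numpy 2.4.6 and scipy 1.17.1. The tests were checked on simulated data. The design has 1 group, so no count model was fitted. Some genes that this rule names are not reported here.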

Additional observations from a re-analysis of the deposited data

Results flagged for a closer look

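Dixon's range test was applied to 63 sets of 4 library values, and 17 had 1 library apart. Chance gives about 1 in 20 where the values are normal, but these counts cannot be set against it. The flags are not independent, since levels, shares and shapes of a gene come from the same cells. Of the 63 sets 20 were other named genes, 4 of them named because a library stood apart. For the variance-to-mean ratio 12.8% of all genes had a library apart. Replicate 4 was above the others in level for Fosb (gap ratio 0.946), Junb (0.893), Ier2 (0.878) and Egr1 (0.831), and for Btg2 (0.871), Dusp1 (0.866) and Zfp36 (0.830), of which Egr1 and Zfp36 were the closest to the limit. It was above the others in the percent of cells with a UMI for Ier2 (0.941), Egr1 (0.916), Fos (0.904) and Fosb (0.866). It was above them in the variance-to-mean ratio, which also rises with the mean, for Jund (0.984), Fosb (0.977) and Jun (0.963). The remaining flags did not involve replicate 4: the variance-to-mean ratio of Fosl2 in replicate 2 (0.961) and of Egr1 in replicate 1 (0.866), each set by 1 cell, and the level of Gpr34 in replicate 3 (0.938), where the libraries lay within 2355 to 2520 CPM. None of the 5 library measures examined (barcodes, total UMIs, median UMIs, median genes and median mitochondrial percent) and none of the 11 marker list sums was apart.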

How the results depend on the processing

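Of 195 comparisons with another setting, 173 stayed within their range (1.5 times a count, or 1 SD over libraries) and 22 did not. Reversal of a direction was not scored. All 99 comparisons of a member's mean CPM were among the 173. Leaving out 1 of 4 libraries cannot move a mean by 1 SD, so such comparisons had no way to fail. For the mean CPM of single members that SD is set by replicate 4, without which the mean was 10.2 for Fos (43.2 with it), 5.59 for Egr1 (30.3), 1.345 for Fosb (3.98) and 19.4 for Ier2 (38.5). All 9 members were highest in replicate 4 under each of the 7 other scalings and cell settings, which were chosen after seeing the data. The 4 members apart in level were 3 to 5 under the alternatives, where Egr1 was lost or Fos added. The 4 apart in share of cells were 3 to 6, and the 16 pairs of replicate 4 with an interval above 1 were 13 to 21, a result chosen after seeing the data. Genes apart in level numbered 354, against 2052 with no expression filter and 148 with at least 50 CPM, and those of the other lists 4 against 7 with no filter. Members apart in the variance-to-mean ratio were 5, against 2 with at least 1000 genes per cell and 3 with all barcodes, without the deepest 1% of cells, without macrophage or monocyte marker cells, without thinning or with another seed. Cells with 3 or more members averaged 6.09% over libraries, 16.5% at 2000 UMIs and 23.2% without thinning, and cells with 2 or more 22.9%. Leaving out 1 replicate gave 2.62% (without replicate 4) to 7.48%. The top 10% of cells held 33.9% of member UMIs on average, 29.8% at 2000 UMIs and 30.2% without thinning, the top 1% held 5.56%, and leaving out 1 replicate gave 33.5% to 34.6%. Pairs above a ratio of 1.5 in every library numbered 0, and 1 without the deepest 1% of cells, at 2000 UMIs or with another seed, 2 without thinning, 0 to 1 with 1 replicate left out, and 9 with a limit of 1. The cause of these moves was not tested, except that more UMIs per cell or a lower limit raise counts by construction. Dixon's test was not run with a library left out, since sets of 3 were not tested. No paired analysis was possible because there is 1 group. Fosb, Fosl2 and Atf3 had 2 to 49 UMIs per library after thinning, too few for their shape.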
